A study of Mus musculus with 4 samples.

Results

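The genes described here are 10 ligands and receptors of the platelet-derived growth factor (PDGF) and fibroblast growth factor (FGF) families, namely Pdgfa, Pdgfb, Pdgfc, Pdgfra, Pdgfrb, Fgf2, Fgf7, Fgf10, Fgfr1 and Fgfr2. They were taken by gene symbol from a table of 16051 genes, in which each symbol was found once. The libraries are mRNA sequencing of 3T3-L1 cells, a mouse embryonic fibroblast line (strain label NIH SWISS) that forms adipocytes in culture. All cells had passed through the same differentiation cocktail and were then exposed for 48 h to DMSO, the vehicle, or to 100 μM risperidone, an atypical antipsychotic. There were 2 libraries per treatment, each made from RNA pooled from 3 cultures of this single line, so p-values measure the spread between pooled libraries and not between cultures. The sample labels call the control untreated and mention retina in the extraction, and the paper's description, DMSO and 3T3-L1, was followed. Dose and time are also those of the paper.

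PDGFs are secreted dimers that bind the receptor tyrosine kinases encoded by Pdgfra and Pdgfrb, and they drive growth and migration of mesenchymal cells. FGFs bind the receptor tyrosine kinases of the Fgfr genes together with heparan sulfate on the cell surface, and both families signal through the Ras and MAP kinase cascade and through PI3 kinase. In adipose tissue, PDGF receptors mark the stromal and perivascular cells from which adipocytes form, and FGF ligands from the stroma act on the growth and commitment of preadipocytes.

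After risperidone 5 of these 10 transcripts were lower. On counts Pdgfc fell by 25.6%, Fgfr1 fell by 29.1%, Pdgfrb fell by 29.5%, Fgf7 fell by 32.4% and Fgfr2 fell by 38.0%, and Pdgfa rose by 16.5%. Pdgfra, the second PDGF receptor, did not pass the test. The other 3 genes, Pdgfb, Fgf2 and Fgf10, lay under 1 FPKM (fragments per kilobase scaled to the reads of the library, a level per gene length) on average and were not part of the main test. Counts were compared by the two-sided quasi-likelihood test of edgeR. Its p-values were adjusted by Benjamini-Hochberg over the 10243 genes whose mean reached 1 FPKM, and an adjusted p under 0.05 was called. Among all of these genes 32.2% were called lower and 32.1% higher (64.3% in either direction), so a call in either direction was common, and 5 of 7 tested members called lower is read against the former share. In FPKM the libraries of 6 of the 7 lay lower without overlap, as did 49.8% of all genes tested, and those of 1 lay higher, as did 32.4%. Without a scaling for composition (library size alone) the calls over all genes were 4092 lower and 2500 higher, and with limma on log2(TPM + 1) 5292 and 1536, against 3303 and 3287 here. The median log2 fold change of the 7 tested members was -0.50, and that of all genes tested was 0.000442.

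**Figure D1:**
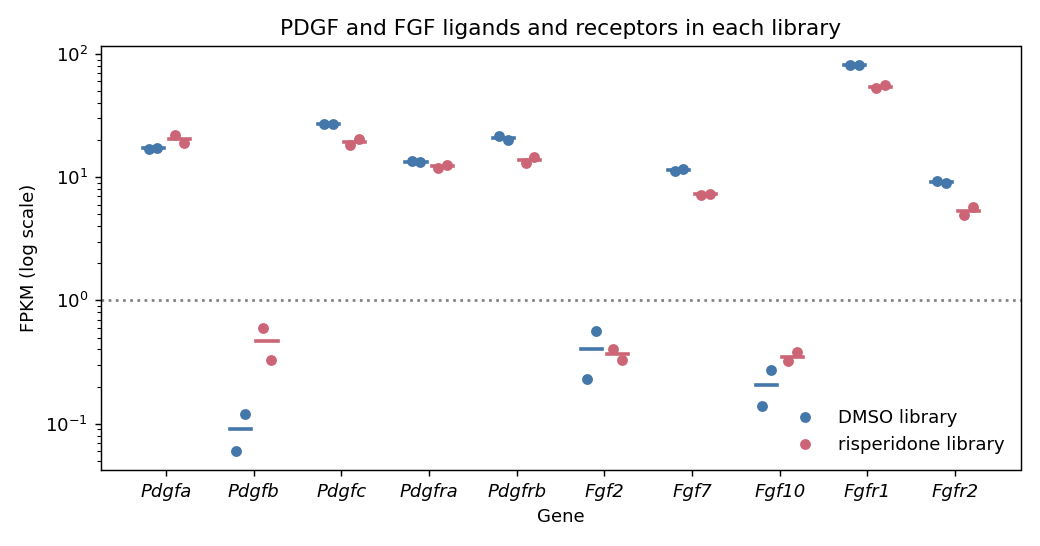
FPKM of each gene (log axis) in the 2 DMSO and 2 risperidone libraries, with points for libraries, bars for means and a dotted line at 1 FPKM, the limit for the main test. Both risperidone points of Pdgfc, Pdgfra, Pdgfrb, Fgf7, Fgfr1 and Fgfr2 lie under both DMSO points, while those of Pdgfa, Pdgfb and Fgf10 lie above. Pdgfb, Fgf2 and Fgf10 are under the line in every library.

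The libraries held 15883712 to 16374119 counts. Of 12 adipocyte markers, 8 were under 1 FPKM in every library, among them Adipoq at 0 to 0.06, Cebpa at 0.02 to 0.12 and Plin1 at 0.04 to 0.51 FPKM, while Pparg lay at 11.4 to 12.8 and Fabp4 at 59.5 to 169 FPKM. Of the 4 adipocyte markers tested, 3 were lower after risperidone, where 32.2% of all genes tested were. The part of these markers in the members' values was not tested. The cells are labelled adipocytes, and the list was thus split, with Lpl at 191 to 250 and Plin4 at 22.0 to 44.5 FPKM also abundant. In bulk RNA fewer cells of a type and less RNA per cell cannot be told apart. Of 12 preadipocyte and fibroblast markers, 9 were tested, with 4 higher and 3 lower, against 32.1% and 32.2% of all genes tested. Dlk1 (log2 fold change 1.52), Thy1 (1.05) and Col1a1 (0.99) were higher, and Col3a1 (-0.96) and S100a4 (-0.83) lower. These kept their direction in every leave-one-out fit. The call of Ly6a was lost without risperidone replicate 2 (log2 fold change 1.20 with it and 0.53 without). That of Col1a2 (-0.16) was lost without DMSO replicate 1 (-0.13) or DMSO replicate 2 (-0.19). The 7 endothelial markers in the table were under 1 FPKM in every library, with sums of 0.16 to 1.06 FPKM, and 8 of 9 pericyte and smooth muscle markers were under 1 FPKM in every library. Acta2 was the exception among the latter, at 111 and 104 FPKM with DMSO and 229 in each risperidone library. Of 7 macrophage and leukocyte markers, 5 were under 1 FPKM in every library. The other two were called in opposite directions, Cd68 higher (2.64 and 3.50 against 6.34 and 6.70 FPKM) and Cd14 lower (12.65 and 14.18 against 9.97 and 9.67 FPKM), the latter not without DMSO replicate 2 (edgeR adjusted p = 0.177). The sum of the 5 retina markers in the table was 2.21 to 3.74 FPKM. The 15 kidney markers summed to 2.03 to 3.21 FPKM in 3 libraries and to 220.9 FPKM in risperidone replicate 2. Without that library the 5 lower members had log2 fold changes of -0.80 to -0.48, all called, and Pdgfa was called at 0.31.

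RefSeq's start sites on GRCm38.p6, the build in the submitters' processing notes, were available for 7 of the 10 genes. The 250 bases before the start are shown for the 3 members that fell and whose window held no annotated exon. These windows were thus chosen by the direction of change. Capitals mark a match to 1 of 6 motifs searched on both strands, the EGR1 core GNGGGCG, SP1 GGGCGG, E-box CACGTG, AP-1 TGANTCA, the TATA box TATAAA and the CArG box of serum response factor. The EGR1 core and SP1 motifs can overlap.
Pdgfc (chr3:81036166-81036415, plus strand): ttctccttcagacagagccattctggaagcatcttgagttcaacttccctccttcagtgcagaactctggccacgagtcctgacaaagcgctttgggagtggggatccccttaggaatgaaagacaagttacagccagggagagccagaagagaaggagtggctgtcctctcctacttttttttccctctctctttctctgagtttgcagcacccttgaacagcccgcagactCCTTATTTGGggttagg
Fgf7 (chr2:126034408-126034657, plus strand): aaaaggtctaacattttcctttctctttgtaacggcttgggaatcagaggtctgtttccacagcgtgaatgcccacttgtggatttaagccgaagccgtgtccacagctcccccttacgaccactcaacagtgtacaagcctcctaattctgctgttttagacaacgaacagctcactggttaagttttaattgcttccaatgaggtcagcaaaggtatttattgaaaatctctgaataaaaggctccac
Fgfr2 (chr7:130266809-130267058, minus strand): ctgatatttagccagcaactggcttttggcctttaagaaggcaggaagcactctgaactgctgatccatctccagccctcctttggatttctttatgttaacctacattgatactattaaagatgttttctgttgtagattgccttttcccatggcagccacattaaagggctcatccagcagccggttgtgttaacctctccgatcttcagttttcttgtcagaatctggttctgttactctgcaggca
The Pdgfc window held a CArG box that begins 17 bases before the start, a motif found in 1.47% of the 32851 RefSeq windows of the same length. No other motif matched in these windows, and the shares over all windows were 28.3% for the EGR1 core, 32.7% for SP1, 6.02% for the E-box, 6.75% for AP-1 and 12.4% for TATA. The windows of Fgf7 and Fgfr2 were less rich in G and C (43.6% and 44.0%) than the median window (52.4%), and that of Pdgfc was near it (50.8%). Among members that were not called lower, the exon-free window of Pdgfra (54.4% G and C) held no match either. That of Fgf10 (61.2%) held 1 EGR1 core and 1 SP1 match. A window without a match was thus not particular to the members that fell. A match is a run of letters and not a bound site.

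Of the PDGF ligands, Pdgfc was the most abundant with DMSO. Pdgfc (NCBI Gene 54635, chromosome 3, 81036416 to 81214040) encodes PDGF-C, a ligand secreted in latent form that activates the alpha receptor after cleavage. Its level was 26.9 and 27.2 FPKM in the DMSO libraries and 18.3 and 20.3 FPKM in the risperidone libraries. The risperidone libraries lay below both DMSO libraries, with means of 27.1 ± 0.233 and 19.3 ± 1.43 FPKM (SD, n = 2 libraries). The log2 fold change on counts was -0.43 ± 0.0634 (SE), at an edgeR adjusted p of 0.000145. This exceeds the replicate spread.

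Pdgfa (NCBI Gene 18590, chromosome 5, 138976014 to 139000792, minus strand) encodes the A chain, which also binds the alpha receptor. It was listed at 17.1 and 17.3 FPKM with DMSO and at 21.8 and 19.0 FPKM with risperidone, so the groups did not overlap, although the risperidone libraries varied more (SD 0.170 and 2.001 FPKM). The log2 fold change of 0.22 (95% interval 0.03 to 0.41) passed the threshold narrowly (edgeR adjusted p = 0.042). The call was lost without DMSO replicate 1 (log2 fold change 0.16), DMSO replicate 2 (0.28) or risperidone replicate 1 (0.12), and DESeq2 did not make it (adjusted p = 0.192). Its counts before any scaling were 359 and 380 with DMSO against 432 and 375 with risperidone, and these overlap. The test used them after TMM scaling, a scaling for composition. Its factors were 1.03 in both DMSO libraries and 0.963 and 0.973 in the risperidone libraries. The gene length implied by counts over FPKM also bears on the difference between counts and FPKM. Relative to its DMSO mean, this length was 96.4% and 104% in the DMSO libraries and 91.2% and 92.3% in the risperidone libraries, whereas for Fgf7 it stayed between 99.9% and 100%. A shorter implied length raises FPKM for the same count.

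With Pdgfc lower and Pdgfa not, the order of the pair was no longer clear. The ratio of Pdgfc to Pdgfa in FPKM was 1.58 and 1.57 with DMSO, and 0.837 and 1.07 with risperidone. With 2 libraries against 2, an exact permutation test cannot give a two-sided p under 0.333, so this ratio and those that follow are given as values only. After risperidone the FPKM of Pdgfa and Pdgfc overlapped between libraries.

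Pdgfb (NCBI Gene 18591, chromosome 15), the B chain, which binds both receptors and is known from endothelium and platelets, was scarce. Its counts were 2 and 6 with DMSO and 26 and 15 with risperidone, or 0.06 and 0.12 against 0.60 and 0.33 FPKM. Both risperidone libraries were higher. The ratio of the summed counts, scaled to library size, was 5.13, with an exact interval of 2.37 to 12.7 that covers counting error only. Without the limit of 1 FPKM, where 18.4% of 16021 genes were called higher and 37.6% in either direction, edgeR put the log2 fold change of Pdgfb at 2.41 ± 0.673 (SE, adjusted p = 0.0401). That call was lost in the fits without DMSO replicate 1, without DMSO replicate 2 and without risperidone replicate 1, with log2 fold changes of 1.82, 3.38 and 1.96. Even at its highest, Pdgfb stayed far below Pdgfa and Pdgfc per gene length, and the 3 PDGF ligands summed to 44.3 ± 0.446 FPKM with DMSO and 40.2 ± 0.764 FPKM with risperidone.

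The PDGF receptors parted. Pdgfrb (NCBI Gene 18596, chromosome 18, 61045127 to 61085067) encodes the beta receptor, a receptor for PDGF-B. It was at 21.8 and 20.2 FPKM with DMSO and at 13.1 and 14.6 FPKM with risperidone, without overlap. Its log2 fold change was -0.50 ± 0.0646 (SE), at an edgeR adjusted p of 5.04e-05.

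Pdgfra (NCBI Gene 18595, chromosome 5, 75151322 to 75198206) encodes the alpha receptor, a common marker of adipocyte progenitors. Its level was 13.5 and 13.3 FPKM with DMSO and 11.95 and 12.56 FPKM with risperidone. The risperidone libraries were lower in FPKM, without overlap. On TMM-scaled counts the log2 fold change was -0.03 (95% interval -0.16 to 0.09, edgeR adjusted p = 0.62), and its direction depended on the scaling. It was -0.26 with limma on log2(TPM + 1) (adjusted p = 0.012), where the median of all genes moved to -0.22, and 0.0709 with offsets for gene length. The ratio of Pdgfrb to Pdgfra was 1.62 and 1.51 with DMSO and 1.10 and 1.16 with risperidone, so the receptors came close to equal levels per length.

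**Figure D2:**
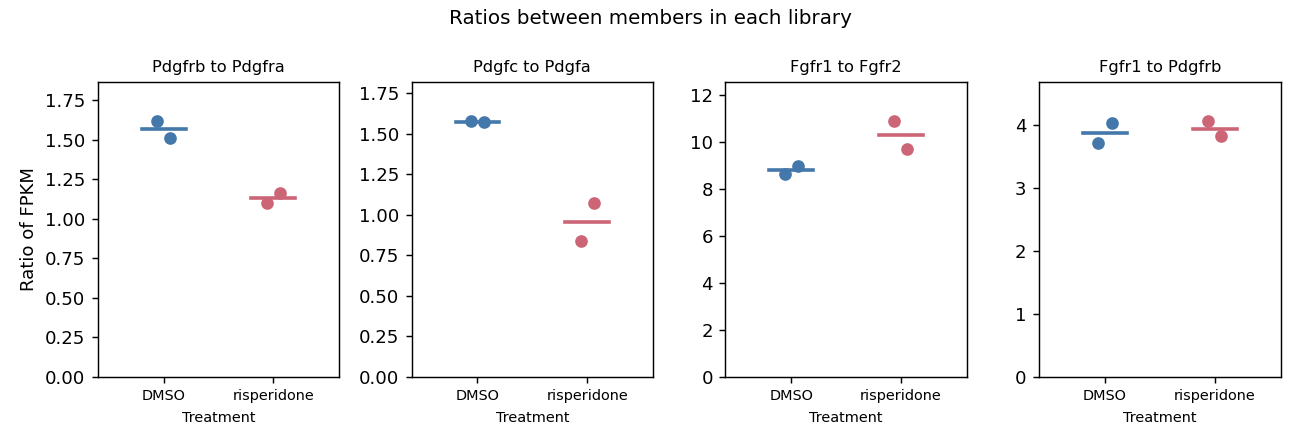
Ratios of FPKM between 2 genes in each library (points), with bars for the mean of a treatment and axes from 0. The ratios of Pdgfrb to Pdgfra and of Pdgfc to Pdgfa are lower in both risperidone libraries, that of Fgfr1 to Fgfr2 is higher, and that of Fgfr1 to Pdgfrb overlaps.

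Of the member FGF ligands Fgf7, Fgf10 and Fgf2, Fgf7 alone was above 1 FPKM. Fgf7 (NCBI Gene 14178, chromosome 2, 126034658 to 126091185) encodes keratinocyte growth factor, which mesenchymal cells secrete and which acts mainly on an epithelial splice form of FGFR2. It was at 11.3 and 11.7 FPKM with DMSO and at 7.19 and 7.33 FPKM with risperidone. Replicates were close and the treatments did not overlap, with means of 11.5 ± 0.276 and 7.26 ± 0.0990 FPKM (SD, n = 2 libraries). The log2 fold change was -0.57 ± 0.0724 (SE), at an edgeR adjusted p of 4.93e-05, and 13.1% of all tested genes had a lower one.

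Fgf10 (NCBI Gene 14165, chromosome 13), a close relative of Fgf7 known from adipogenesis, had 10 and 19 counts with DMSO and 23 and 27 with risperidone. Both risperidone libraries were higher, and the ratio of summed counts, scaled likewise, was 1.72 with an exact counting interval of 1.07 to 2.83. It was not called, and edgeR without the limit put the log2 fold change at 0.87 (adjusted p = 0.183). Fgf2 (NCBI Gene 14173, chromosome 3), basic FGF, had 3 and 6 counts with DMSO and 5 and 3 with risperidone. The libraries overlapped, and the counting interval of the ratio, 0.299 to 2.60, includes 1, so a difference was not detectable at this depth. Exons of Fgf2 overlap those of Nudt6 on the other strand, which had 53 to 82 counts per library, and since the strand setting of the counting is not given in the sources used here, reads of the pair cannot be told apart.

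The FGF receptors both fell. Fgfr1 (NCBI Gene 14182, chromosome 8, 25518759 to 25575718), the main FGF receptor of mesenchymal cells, was the most abundant of the 10 genes in every library, at 80.9 and 81.2 FPKM with DMSO and 53.2 and 55.6 FPKM with risperidone. These values rest on 3822 to 5904 counts, and the treatments lay far apart relative to the replicates. The log2 fold change was -0.50 ± 0.0459 (SE), at an edgeR adjusted p of 4.51e-06.

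Fgfr2 (NCBI Gene 14183, chromosome 7, 130162451 to 130266808, minus strand), whose splice forms bind Fgf7 and Fgf10 or other FGFs, had the lowest log2 fold change of the 7 tested members, except after quantile normalization (-0.53, against -0.58 for Fgfr1). It was at 9.38 and 9.03 FPKM with DMSO and at 4.90 and 5.73 FPKM with risperidone. Both risperidone libraries were lower, the log2 fold change being -0.69 ± 0.0722 (SE), at an edgeR adjusted p of 1.12e-05, and 9.18% of all tested genes had a lower one. Exons annotated to Fgfr2 and to Ctbp2 overlap on the same strand, and Ctbp2 moved the other way, with a log2 fold change of 0.34. Splice forms were not separated in the table. The ratio of Fgfr1 to Fgfr2 was 8.62 and 8.99 with DMSO and 10.9 and 9.71 with risperidone, while that of Fgfr1 to Pdgfrb overlapped between treatments, at 3.71 and 4.02 against 4.06 and 3.81.

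**Figure D3:**
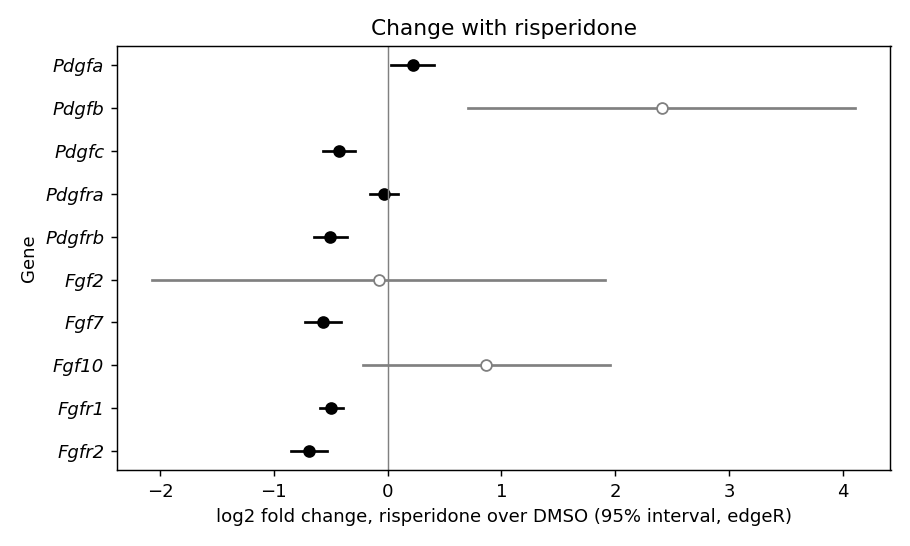
Log2 fold change of each gene, risperidone over DMSO, from edgeR on counts, with 95% intervals, filled for the 7 tested genes and open for the 3 under 1 FPKM, which come from the fit without that limit. Pdgfc, Pdgfrb, Fgf7, Fgfr1 and Fgfr2 lie between -0.69 and -0.43 with intervals under 0, and the intervals of Pdgfra, Fgf2 and Fgf10 cross 0.

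Ranked by mean FPKM with DMSO, the order was Fgfr1, Pdgfc, Pdgfrb, Pdgfa, Pdgfra, Fgf7, Fgfr2, Fgf2, Fgf10 and Pdgfb, and libraries of neighbours overlapped only between Fgf2 and Fgf10. With risperidone Pdgfa came second, overlapping with Pdgfc, and the libraries of Pdgfrb and Pdgfra remained apart. At the lower end, the risperidone libraries of Pdgfb, Fgf2 and Fgf10 overlapped each other. The 4 receptors summed to 124.6 ± 1.29 FPKM with DMSO and 85.82 ± 3.804 FPKM with risperidone, and Fgfr1 made up 65.0% and 63.4% of these sums. The 3 FGF ligands summed to 12.1 ± 0.608 and 7.98 ± 0.0919 FPKM. By role, 3 of 4 tested receptors and 2 of 3 tested ligands were lower, against 32.2% of all genes tested, and 1 ligand was higher.

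Other genes of both families were few in these cells. Of 28 further ligands, receptors and binding proteins, 19 were in the table and 2 were tested, and both were called. Pdgfrl, a PDGF receptor-like gene without a kinase, fell from 3.73 and 4.46 to 1.48 and 1.76 FPKM (log2 fold change -1.23 ± 0.213, SE). Fgfrl1, an FGF receptor-like gene that lacks the kinase domain, rose from 23.5 and 22.0 to 28.6 and 28.8 FPKM (log2 fold change 0.44), opposite to Fgfr1 and Fgfr2. Without the limit on FPKM, 2 of the 17 scarcer genes were called, where 18.4% of all genes in that fit were called higher and 19.3% lower. These 2 genes, and Fgf1 and Kl after them, are named after their values were seen. The ligand Fgf17 fell from 1.38 and 1.48 to 0.53 and 0.46 FPKM (log2 fold change -1.44), and Fgfr3 rose from 0.11 and 0.16 to 0.32 and 0.50 FPKM (1.72). Fgf1 and the co-receptor gene Kl were at 0.66 and 1.04 FPKM in risperidone replicate 2, the library with kidney transcripts, and at 0.05 FPKM or less in the other libraries.

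The counts of tested genes in the pathway lists are read against the 32.2% of all tested genes called lower and the 32.1% called higher, and shares near these say nothing particular of a list. Of 6 proteases that can process PDGF ligands, 3 were tested and all 3 were lower. Furin, a proprotein convertase that cleaves PDGF precursors, fell from 63.5 and 66.1 to 45.3 and 46.0 FPKM (log2 fold change -0.41), and the related Pcsk7 had a log2 fold change of -0.50. Plat, tissue plasminogen activator, which activates PDGF-C, had a log2 fold change of -0.15 at the edge of the threshold (edgeR adjusted p = 0.0499). Its call was lost without a filter on low values (0.0917) and without DMSO replicate 1 (0.234), DMSO replicate 2 (0.122) or risperidone replicate 2 (0.137), the values being adjusted p. Of 16 tested genes of heparan sulfate proteoglycans and their enzymes, 6 were higher and 7 lower, with a median log2 fold change of 0.04. Sulf2, a sulfatase that edits heparan sulfate outside the cell, rose from 1.68 and 1.78 to 5.39 and 5.01 FPKM (log2 fold change 1.70). The syndecan gene Sdc3 (1.04) and the glypican gene Gpc4 (0.77) were also higher. Others of both families, named after their values were seen, went both ways. Sdc2 (log2 fold change -0.45), Sdc4 (-0.41) and Gpc1 (-0.42) were lower. Sdc1 (0.60) and Gpc6 (0.21, with FPKM overlapping between treatments) were higher. Sdc2 and Sdc4 exceeded Sdc3 in FPKM in every library.

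Within the cell, 23 adaptors and proximal effectors were tested, of which 8 were lower, 2 higher and 13 not called, with a median log2 fold change of -0.06. Grb14, an adaptor that binds activated receptor kinases, rose from 4.57 and 3.93 to 11.3 and 10.2 FPKM (log2 fold change 1.44). Cbl, a ubiquitin ligase for receptor kinases, and the adaptor gene Crkl fell, with log2 fold changes of -0.58 and -0.54. Of 14 tested feedback inhibitors and transcriptional targets of both pathways, 6 were lower and 5 higher, with a median log2 fold change of -0.29. The immediate early genes Egr1 (10.5 and 10.1 to 2.95 and 3.42 FPKM, log2 fold change -1.60) and Ier2 (-1.42) fell, and Myc rose from 6.07 and 6.23 to 17.9 and 14.0 FPKM (1.47). Among the 9 genes of this list under the limit, Spry4 and Spry1, Sprouty inhibitors named after their values were seen, were called in the fit without it and in opposite directions (log2 fold changes -1.74 and 1.07). Over the 5 lists together, 25 of 58 tested genes were lower and 14 higher, where 32.2% and 32.1% of all tested genes were. Many of these genes answer to other pathways too.

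**Figure D4:**
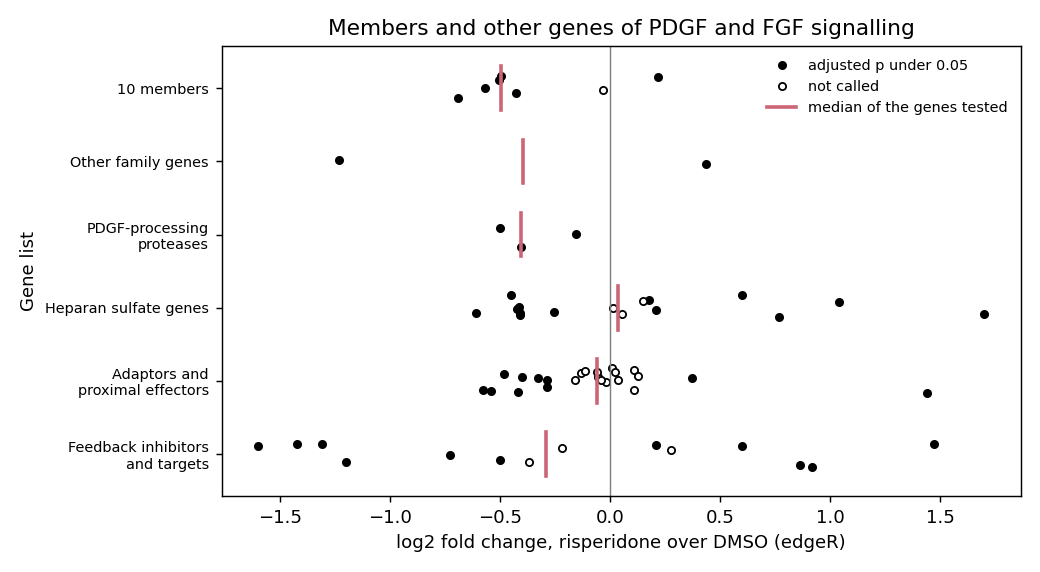
Log2 fold changes (edgeR, risperidone over DMSO) of the tested genes in 6 lists, each point a gene, filled at an adjusted p under 0.05, with the list's median as a bar and vertical scatter only for visibility. The members' median is -0.50, and those of the heparan sulfate genes and of the adaptors are near 0.

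The direction and the call of the 5 lower members held under each of the 16 alternatives. Their log2 fold changes ranged from -0.88 to -0.37, with a highest adjusted p of 0.00348 from edgeR, DESeq2 or limma. Those of Pdgfa ranged from 0.10 to 0.32, and the call held under 7 of the 16.

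**Figure D5:**
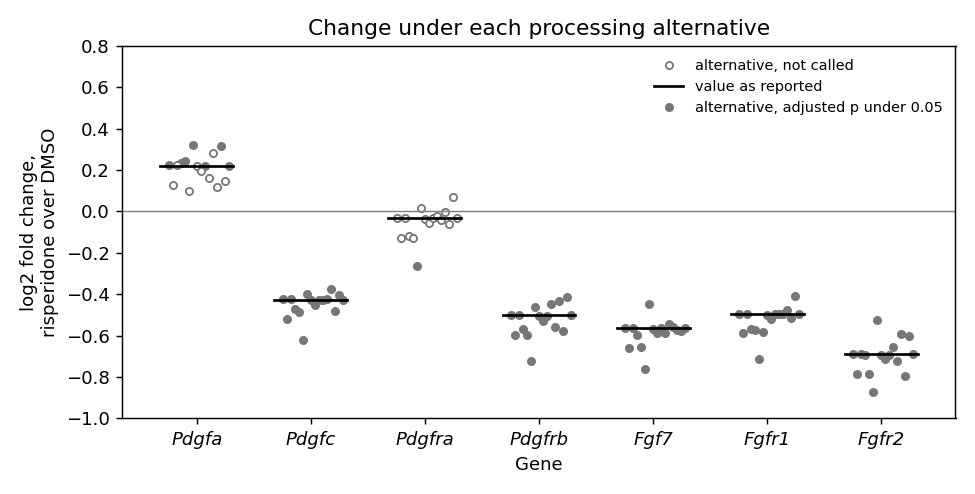
Log2 fold change of the 7 tested genes, risperidone over DMSO, under 16 processing alternatives (points, filled at an adjusted p under 0.05) beside the value as reported (bar). All points of Pdgfc, Pdgfrb, Fgf7, Fgfr1 and Fgfr2 are filled and below 0, 9 points of Pdgfa are open, and those of Pdgfra lie on both sides of 0.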

How the data were processed

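Expression was measured by mRNA sequencing (MGISEQ-2000) of differentiated 3T3-L1 cells, in 2 libraries with DMSO and 2 with risperidone. The authors removed reads with adaptors, poly-N or low quality, and the submitters' notes name GRCm38.p6, Bowtie2, RSEM and DESeq2, whose versions and roles are not given in the sources used here. The authors deposited an estimated count, FPKM and TPM per gene and library, with the FPKM calculated on the DC.TOM platform. The deposited averages per treatment were not used. Per the file headers, estimated (expected) counts carry no normalization, and 91.2% to 91.7% of the values of a library, genes at 0 included, were whole numbers exactly as listed. They were rounded and tested with edgeR 4.0.16 (R 4.3.3) after TMM scaling. The SE of a log2 fold change is its size divided by the root of the F statistic. The lists, members and tests were chosen with earlier results of these data known. Named genes are all members and, per pathway list, up to 3 called genes with the largest change and no overlap in FPKM, beside those said to be chosen after their values were seen. Genes of the cell type marker lists, and those whose exons overlap a member, are named outside this rule. The test was tested on simulated data of 10243 genes, of which a small share was changed, up or down at random. There edgeR recovered 76% of changes of 0.5 and 93% of changes of 1 on the log2 scale, with 17 false calls. DESeq2 recovered 69% and 90% with 6 false calls, and limma 62% and 89% with 10. The simulated spread was taken from the fit to these data, in which 64.3% of the genes tested were called. The simulation thus does not give the error rate of the calls reported here. Alternatives used limma 3.58.1, DESeq2 1.42.0, other scalings and filters, length offsets, a replicate block and each library left out. Same-numbered libraries of the treatments are not said to share a batch. Coordinates and start regions are from RefSeq, GRCm38.p6, matched by gene identifier for all 10 members, and exon overlaps from GENCODE M21. Exons of 7 members overlap those of another annotated gene, for 2 of them a protein-coding one.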

Additional observations from a re-analysis of the deposited data

How the results depend on the processing

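Each member called lower kept its direction and its call under all 16 alternatives. The number of members called lower was 5 in each leave-one-out fit, and the number called higher ranged from 0 to 1. The single higher call, that of Pdgfa, was 0 with library size alone (log2 fold change 0.13), with DESeq2 (0.22), with limma on log2(TPM + 1) (0.10), with a 5 FPKM limit on the mean (0.20) and with length offsets (0.15). It was also lost without a filter on low values (0.22, adjusted p = 0.127 from edgeR), where Pdgfb took its place. Over all genes, limma on log2(TPM + 1) gave 1536 higher and 5292 lower calls, and it lowered the median log2 fold change to -0.22. Leaving out a library gave 2666 to 3310 higher and 2725 to 3350 lower calls, and for the pathway lists 13 to 18 and 24 to 26. Pdgfra was reversed after quantile normalization (0.0166) and with length offsets (0.0709). Fgf2 was reversed, without a filter, in the fits without DMSO replicate 2 (0.506) and without risperidone replicate 2 (0.26). The causes were not tested. With the replicate number as a block, 5 members were lower and 1 higher, and 3321 genes were lower and 3292 higher. Deviations of same-numbered libraries had a correlation of -0.11 across genes, and with crossed numbers as the block, chosen after seeing the data, 3519 genes were lower and 3474 higher. The block changed no call of the 7 tested members and was not run for Pdgfb, Fgf2 and Fgf10. Depth limits Pdgfb, Fgf2 and Fgf10, with 2 to 27 counts per library, and counting intervals leave out the spread between cultures.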
